A study of Sus scrofa with 8 samples.

Results

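Hepatic expression of 10 genes of the liver endothelium was followed in pigs before and after diet-induced steatosis. The genes were STAB1, STAB2, LYVE1 and CLEC4G, taken here as markers of the sinusoidal endothelium, and PECAM1, CDH5, KDR, TEK, F8 and VWF, which are shared more widely by endothelial cells or serve coagulation. They were chosen by gene symbol, with earlier results of these data known, and all 10 were found among the 18103 genes of the deposited table. All 10 were above 0.3 FPKM (fragments normalized for transcript length and library size) in each of the 8 libraries, so none entered the tests through 1 group alone. The study used male Landrace x Large White pigs. The initial state consisted of healthy pigs aged 4 months before the diet, whose livers were sampled by biopsy through laparotomy. Steatosis consisted of the same animals aged 6 months, after 2 months on a steatotic diet with saturated fat, fructose, cholesterol and cholate and with little methionine and choline, and these livers were taken at euthanasia. Each group held 4 libraries, each a pool of RNA from 2 pigs, so the SD below is between pools. No group aged 6 months without that diet is among the 8 libraries, so diet, age and way of sampling cannot be told apart. RNA came from whole liver, so the values do not show which cells expressed a gene, and this holds for STAB1 and LYVE1 too. In such RNA, fewer cells of a type and less RNA per cell cannot be told apart either.

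Liver sinusoids are lined by endothelial cells that have open pores and no basement membrane. These cells clear hyaluronan, modified lipoproteins and other waste from blood through scavenger receptors, and they are the main source of coagulation factor VIII. Continuous endothelium of the larger vessels is held together by VE-cadherin and stores von Willebrand factor. When sinusoids lose their pores in chronic liver disease they are said to be capillarized, a state known for a loss of sinusoidal markers and a gain of markers of continuous vessels.

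Read totals were not used here, and the paper reports similar mean totals of clean reads for both groups. In transcripts of 400 to 600 bases, the FPKM values from 0.08 to 0.16 had a median between 0.11 and 0.13 in all 8 libraries. That window largely sets the median in advance, so it cannot show whether the libraries were of like depth. The median log2 fold change of the 13175 tested genes was 0.25 towards steatosis, and 10373 of them had a positive value, and the changes below should be read beside that value. Division of each library by the median of its gene-wise ratios to the average library (median-ratio scaling) brought this median to -0.01, and changes are given with and without this scaling where it matters. Beside the shift, the summed FPKM of 7 hepatocyte genes was 84750, 82423, 87375 and 118119 in pools 1 to 4 of the initial state. In steatosis it lay between 66378 and 79912. ALB, 1 of the 7, measured 71003 FPKM in pool 4 of the initial state and at most 45743 FPKM in the other libraries. FGB and APOC3 were the 2 of these 7 genes lower in steatosis at an adjusted p under 0.05, beside 2.28% of all tested genes. Pool 1 of the initial state stood apart, with 2548 FPKM summed over 5 skeletal muscle genes and 1490 over 5 stomach genes, against at most 19.7 and 28.3 in the other libraries. The part of these in the results was not tested, and for the 10 genes values without pool 1 of the initial state are given where they change a call.

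The clearest change among the 10 genes was that of PECAM1, the adhesion molecule CD31 of endothelial junctions, which rose in steatosis. KDR and F8 rose by the same test but not under all scalings, and the 4 sinusoidal markers did not pass it. No gene of the 10 passed the limits of the study, a log2 fold change (log2FC) beyond 1 at an adjusted p under 0.01, which 6.01% of all tested genes passed in the direction of steatosis and 0.334% in the other. At an adjusted p under 0.05 with no limit on the size, 3 of the 10 were higher in steatosis and none lower, against 26.7% and 2.28% of all tested genes. The 3 genes, PECAM1, KDR and F8, were also those whose pools did not overlap between groups, which held for 29.6% of all tested genes in that direction. These shares of the 10 were close to those of all tested genes. The median log2FC of the 10 was 0.47, from 0.13 to 0.74, and 7 of them lay above the median of all tested genes. All adjusted p values in the text come from limma on log2(FPKM + 0.1) with Benjamini-Hochberg adjustment over all tested genes, and all log2FC values are on that scale.

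**Figure D1:**
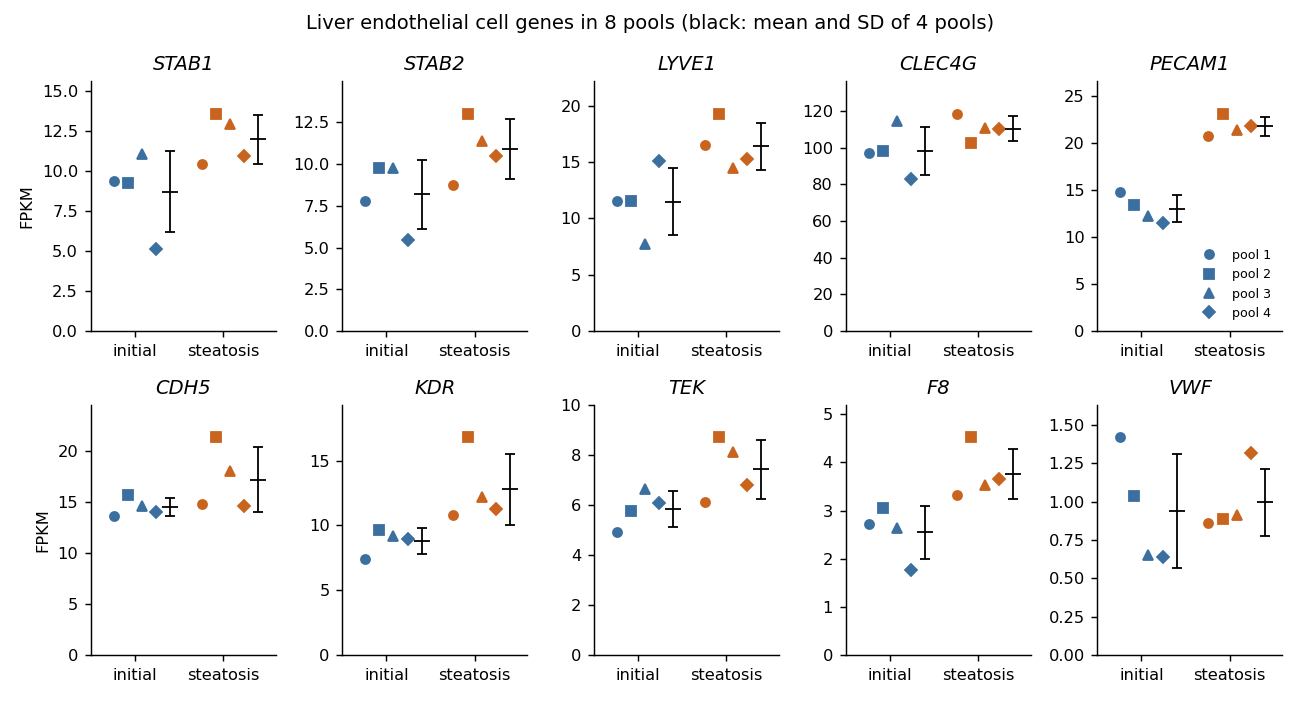
FPKM of the 10 endothelial genes (y axes, each starting at 0) in the 4 pools of the initial state and the 4 pools of steatosis, with the symbol giving the pool number and the black bar the mean and SD. The groups do not overlap for PECAM1, KDR and F8, whereas the steatosis pools of VWF lie within the range of its initial pools.

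Regarding the scavenger receptors, STAB1 and STAB2 encode stabilin-1 and stabilin-2, large receptors that take up hyaluronan, modified lipoproteins and other ligands. STAB1 (gene 100525609, chromosome 13 of Sscrofa11.1, 34630448 to 34659371) measured 9.38, 9.27, 11.08 and 5.13 FPKM in pools 1 to 4 of the initial state and 10.45, 13.61, 12.96 and 10.98 FPKM in steatosis. Its mean went from 8.71 ± 2.53 to 12 ± 1.52 FPKM (SD, n = 4 pools), but the groups overlapped, since pool 3 of the initial state exceeded pools 1 and 4 of steatosis. The log2FC was 0.50 (SE 0.22, 95% interval 0.02 to 0.99, adjusted p = 0.107), and the two-sided exact permutation test of the means gave p = 0.0857. STAB2 (gene 100521556, chromosome 5, 80692459 to 80863221) measured 7.77, 9.77, 9.77 and 5.43 FPKM in the initial state and 8.75, 13.0, 11.35 and 10.45 FPKM in steatosis. The log2FC of STAB2 was 0.43 (SE 0.20, 95% interval -0.01 to 0.87, adjusted p = 0.126). For both genes, pool 4 of the initial state was the lowest library and pool 2 of steatosis the highest. Each was higher in steatosis in 4 of 4 pairs of pools with the same number, and neither passed the test when the pool number was a block (adjusted p = 0.058 for STAB1 and 0.0662 for STAB2). Without pool 4 of the initial state the log2FC was smaller, at 0.27 for STAB1 and 0.25 for STAB2.

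The stabilins moved together from library to library. The ratio of STAB1 to STAB2 in FPKM stayed between 0.945 and 1.21 in the 8 libraries, while STAB1 itself varied 2.65-fold between its lowest and highest library. F8, which codes for coagulation factor VIII, kept a similar proportion to STAB2, from 0.27 to 0.379, although F8 alone varied 2.55-fold. These ratios are descriptions over 8 libraries, and a ratio within a library does not depend on the scaling between libraries. Pool 4 of the initial state, where STAB1, STAB2 and F8 were all at their lowest, also had the lowest median of all tested genes among the initial pools, 0.16 below the group mean on the log2 scale. The deviations of these genes in that pool were larger, at -0.70, -0.55 and -0.47.

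LYVE1 encodes a hyaluronan receptor of sinusoidal and lymphatic endothelium. LYVE1 (gene 397626, chromosome 2, 48937357 to 48954206) measured 11.57, 11.53, 7.77 and 15.06 FPKM in the initial state and 16.53, 19.3, 14.52 and 15.3 FPKM in steatosis. Only pool 4 of the initial state reached into the range of steatosis, and this was the library where the stabilins were at their lowest. The ratio of LYVE1 to STAB2 accordingly ranged from 0.795 in pool 3 to 2.77 in pool 4 of the initial state, and from 1.28 to 1.89 in steatosis. The log2FC of LYVE1 was 0.54 (SE 0.18, adjusted p = 0.0516), just above the threshold of 0.05. When pool numbers were blocked, the adjusted p of LYVE1 was 0.0357, with a filter of 1 FPKM it was 0.0492, and without pool 4 of the initial state it was 0.0173 with a log2FC of 0.68. Under median-ratio scaling the log2FC was 0.27 with an adjusted p of 0.408. The 4 further genes listed for lymphatic endothelium that were measured, PDPN, CCL21, PROX1 and MMRN1, did not pass the test. PROX1 had means of 22.3 and 22.1 FPKM, above those of LYVE1, and which cells expressed it was not tested.

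CLEC4G encodes LSECtin, a C-type lectin of sinusoidal endothelium in liver and lymph node. It was by far the most abundant of the 10 genes. CLEC4G (gene 100240718, chromosome 2, 71433406 to 71436570) measured 97.06, 98, 114.68 and 82.82 FPKM in the initial state and 118.43, 102.26, 110.42 and 110.14 FPKM in steatosis. The means of 98.1 ± 13.0 and 110.3 ± 6.6 FPKM (SD, n = 4 pools) placed it at position 563 of the 13175 tested genes in the initial state and 564 in steatosis. Its log2FC of 0.18 (SE 0.11, 95% interval -0.06 to 0.42, adjusted p = 0.24) was below the median of all tested genes. Under median-ratio scaling the value was -0.10 with a 95% interval from -0.31 to 0.11.

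At the endothelial junctions, PECAM1 and CDH5 were at similar levels in the initial state, and PECAM1 was above CDH5 in every steatosis library. PECAM1 (gene 396941, chromosome 12, 14667643 to 14723296) measured 14.77, 13.46, 12.27 and 11.51 FPKM in the initial state and 20.71, 23.11, 21.42 and 21.85 FPKM in steatosis. The lowest pool of steatosis lay above the highest pool of the initial state, and the mean of PECAM1 was 67.4% higher, at 21.8 ± 1.01 against 13.0 ± 1.43 FPKM (SD, n = 4 pools). The log2FC was 0.74 (SE 0.10, 95% interval 0.52 to 0.97, adjusted p = 0.000754), with a two-sided exact permutation p of 0.0286, the smallest that 4 pools against 4 allow. Over the 16 alternative settings that were run, including those that left out 1 library, it stayed between 0.47 and 0.81 with an adjusted p of at most 0.00738. PECAM1 is also carried by platelets and leukocytes. The macrophage and leukocyte list had 7 of its 10 genes higher at an adjusted p under 0.05, beside 26.7% of all tested genes. CD5L of that list was lower in steatosis without overlap, at 190 and 148 FPKM in the mean (adjusted p = 0.0709). C1QA had a log2FC of 0.07. The list was not counted under median-ratio scaling. The summed level of the list was 865 to 1197 FPKM in the initial state and 1234 to 1449 FPKM in steatosis. PTPRC, the common leukocyte antigen, had means of 9.51 and 13.7 FPKM. Of the 5 measured platelet genes PPBP, GP1BB and TUBB1 stayed under the filter, GP9 was higher (0.32 and 0.575 FPKM, adjusted p = 0.0397) and ITGA2B did not pass the test, and their summed level was 2.42 to 4.39 FPKM in the initial state and 3.34 to 3.73 FPKM in steatosis. The lowest initial pools of GP9, at 0.26 and 0.22 FPKM, were under the filter of 0.3 FPKM, so it entered the tests through steatosis. The part of platelets and leukocytes in the rise of PECAM1 was not tested.

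CDH5 encodes VE-cadherin, which joins endothelial cells and is not carried by leukocytes. CDH5 (gene 414737, chromosome 6, 27108560 to 27142145) measured 13.65, 15.65, 14.62 and 13.99 FPKM in the initial state and 14.85, 21.35, 18.03 and 14.57 FPKM in steatosis. Pool 1 and pool 4 of steatosis lay within the range of the initial state, so the groups overlapped. The log2FC of CDH5 was 0.23 (SE 0.13, 95% interval -0.06 to 0.52, adjusted p = 0.207), about that of the median tested gene, and it was -0.04 under median-ratio scaling. The ratio of CDH5 to PECAM1 was 0.924, 1.16, 1.19 and 1.22 in the initial pools and 0.717, 0.924, 0.842 and 0.667 in the steatosis pools. Every pool of steatosis had a ratio below those of the initial state, although pool 2 of steatosis and pool 1 of the initial state were nearly equal. Of their measured junction partners, 3 of 8 were higher in steatosis at an adjusted p under 0.05, beside 26.7% of all tested genes. These were the catenin genes CTNNA1, CTNNB1 and CTNND1, with log2FC values of 0.59, 0.33 and 0.66. These catenins serve hepatocytes as well, and CTNNB1 did not pass the test under median-ratio scaling (log2FC 0.06, adjusted p = 0.68).

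**Figure D2:**
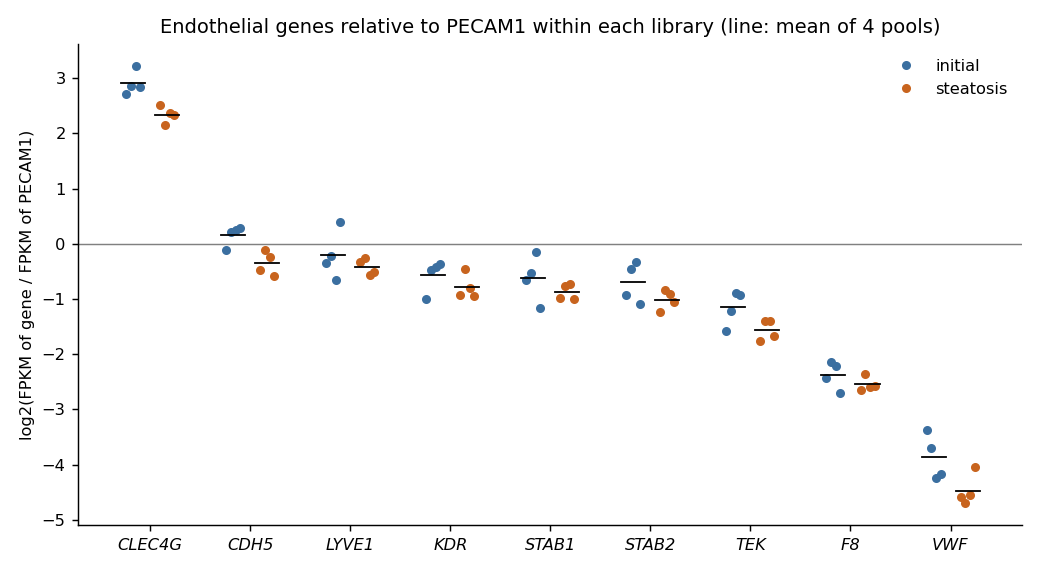
Log2 ratio of the FPKM of 9 endothelial genes to that of PECAM1 in the same library (y axis), with 4 points for each group and a line at their mean. CLEC4G and CDH5 are the genes whose ratios in steatosis lie wholly below those of the initial state, and the means of all 9 are lower in steatosis because PECAM1 had the highest log2FC of the 10.

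PECAM1 had the highest log2FC of the 10 genes, so the mean log2 ratios of the other 9 to it had to be lower in steatosis, and their sizes alone are described. The difference was -0.17 for F8, -0.20 for LYVE1, -0.23 for KDR, -0.24 for STAB1 and -0.31 for STAB2. It was larger for TEK (-0.41), CDH5 (-0.52), CLEC4G (-0.57) and VWF (-0.60). The ratios did not overlap between groups for CDH5 and CLEC4G only, and for the other 7 genes they did. These differences share the values of PECAM1 and were not tested.

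KDR and TEK encode the receptor tyrosine kinases for vascular endothelial growth factor (VEGFR2) and for angiopoietins (TIE2). KDR (gene 397311, chromosome 8, 41809116 to 41856379) measured 7.4, 9.68, 9.18 and 8.98 FPKM in the initial state and 10.84, 16.81, 12.23 and 11.27 FPKM in steatosis. The groups did not overlap, and pool 2 of steatosis was well above the others. KDR rose by 45.1% in mean FPKM, with a log2FC of 0.52 (SE 0.15, adjusted p = 0.0302, exact permutation p = 0.0286). This call was lost without pool 2 of steatosis (log2FC 0.38, adjusted p = 0.0644), without pool 3 of steatosis (0.53, adjusted p = 0.0604), without pool 1 of the initial state (0.44, adjusted p = 0.0649), under median-ratio scaling (0.25, adjusted p = 0.28) and under upper-quartile scaling (0.28, adjusted p = 0.227). TEK (gene 396729, chromosome 1, 195938177 to 196052294) measured 4.92, 5.76, 6.65 and 6.08 FPKM in the initial state and 6.12, 8.72, 8.12 and 6.83 FPKM in steatosis. Pool 1 of steatosis was below pool 3 of the initial state, and the log2FC of 0.34 (SE 0.14, 95% interval 0.02 to 0.66, adjusted p = 0.101) did not pass the test. KDR and TEK kept a ratio between 1.38 and 1.93 in FPKM over the 8 libraries.

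The ligands and partners of these receptors were examined as a list of 14 genes, of which 12 were tested and 6 were higher in steatosis at an adjusted p under 0.05, beside 26.7% of all tested genes. Under median-ratio scaling 2 of the 12 were higher and 1 lower, beside 11.6% and 9.77% of all tested genes. ANGPT2, the angiopoietin that endothelial cells release and that can antagonise TIE2, rose from 0.705 ± 0.225 to 1.65 ± 0.387 FPKM (SD, n = 4 pools), with pools at 0.76, 1, 0.55 and 0.51 before and 1.64, 1.12, 2.02 and 1.83 after the diet. Its log2FC was 1.13 (SE 0.24, adjusted p = 0.00789). ANGPT1, the agonist of TIE2, measured 0.375 and 0.613 FPKM in the mean (adjusted p = 0.0739). NRP2, a co-receptor of VEGFC, rose from 2.32 ± 0.225 to 4.92 ± 0.868 FPKM (log2FC 1.04 with an SE of 0.15, adjusted p = 0.000916). ANGPT2 and NRP2 had an adjusted p under 0.05 in all 16 alternative settings. They were the members of this list past the limits of the study, but not under median-ratio scaling, where their log2FC values were 0.89 and 0.78. VEGFB, VEGFC, VEGFD and TIE1, the orphan partner of TIE2, rose with log2FC values of 0.58, 0.72, 0.41 and 0.58 and adjusted p of 0.0115, 0.017, 0.0319 and 0.0375, but none of these 4 passed under median-ratio scaling, and VEGFD and TIE1 passed in 7 and 8 of the 16 alternative settings. VEGFA, the main ligand of VEGFR2, was the most abundant of the list, at 63.8 ± 11.5 FPKM in the initial state and 61.3 ± 2.46 FPKM in steatosis. Its log2FC was -0.04 (SE 0.13, adjusted p = 0.832), and under median-ratio scaling it was -0.31 with an adjusted p of 0.0466. FLT1, FLT4, NRP1 and PTPRB did not pass the test, with log2FC values of 0.18, 0.05, 0.37 and 0.28. PGF and ANGPT4 were below the filter.

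F8 and VWF encode coagulation factor VIII and its carrier in plasma, von Willebrand factor. F8 (gene 397339, chromosome X, 125265330 to 125350853) measured 2.72, 3.05, 2.64 and 1.77 FPKM in the initial state and 3.32, 4.52, 3.54 and 3.65 FPKM in steatosis. The groups did not overlap, and pool 4 of the initial state was the lowest library. F8 rose by 47.6% in mean FPKM, a log2FC of 0.56 (SE 0.18, 95% interval 0.16 to 0.96, adjusted p = 0.04, exact permutation p = 0.0286). The adjusted p was above 0.05 in 11 of the 16 alternative settings, among them 7 of the 8 that left out 1 library, where it was highest without pool 2 of steatosis (0.112) and was 0.0513 without pool 1 of the initial state, and it was 0.159 with a log2FC of 0.30 under median-ratio scaling.

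VWF (gene 399543, chromosome 5, 64516627 to 64655938) was the least abundant of the 10 genes. It measured 1.42, 1.04, 0.65 and 0.64 FPKM in the initial state and 0.86, 0.89, 0.91 and 1.32 FPKM in steatosis, and all steatosis pools lay within the range of the initial state. The log2FC was 0.13 (SE 0.26, 95% interval -0.46 to 0.71, adjusted p = 0.741), and it was -0.01 without pool 3 of the initial state, without pool 4 of the initial state and without pool 4 of steatosis. Pool 1 of the initial state, which stood apart in muscle and stomach genes, held the highest VWF value. Without it the log2FC was 0.33 (adjusted p = 0.31), and pool 4 of steatosis lay above the remaining initial pools. In the initial state the pools high in VWF were also high in smooth muscle genes, whose summed level over 5 genes was 133, 84.5, 31.1 and 22.6 FPKM in pools 1 to 4. In steatosis that sum was 52.7, 30.8, 34.7 and 64.4 FPKM, again highest in the pool with the highest VWF. The 4 measured cholangiocyte genes summed to 19.9, 7.33, 6.71 and 4.06 FPKM and to 18.6, 7.57, 7.89 and 18.5 FPKM. The part of larger vessels, of portal tracts and of the muscle and stomach RNA in pool 1 of the initial state in the VWF values was not tested.

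Of the genes that handle factor VIII and von Willebrand factor, 2 of 7 were lower and 2 higher in steatosis at an adjusted p under 0.05. Of all tested genes, 2.28% were lower and 26.7% higher. LMAN1 and MCFD2, which form the cargo receptor that carries factors V and VIII out of the endoplasmic reticulum, fell from 66.9 ± 5.22 to 44.3 ± 4.5 FPKM and from 90.1 ± 8.67 to 63.6 ± 7.69 FPKM (SD, n = 4 pools). Their log2FC values were -0.60 (SE 0.10, adjusted p = 0.00242) and -0.51 (SE 0.11, adjusted p = 0.00943), and both passed the test in all 16 alternative settings. Both genes are expressed in hepatocytes too. ADAMTS13, the protease that cleaves von Willebrand factor and is made by stellate cells, rose from 1.64 ± 0.476 to 3.28 ± 0.347 FPKM (log2FC 1.0 with an SE of 0.22, adjusted p = 0.00795). LRP1, a clearance receptor of factor VIII, rose from 24.9 to 40.6 FPKM (log2FC 0.72, adjusted p = 0.00953). The most abundant genes of the list, the asialoglycoprotein receptor genes ASGR1 and ASGR2, had log2FC values of -0.02 and -0.20 and did not pass the test. Under median-ratio scaling ASGR2 was lower (log2FC -0.48, adjusted p = 0.0153), so that 3 of the 7 genes were lower and 2 higher. That stands beside 9.77% and 11.6% of all tested genes.

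**Figure D3:**
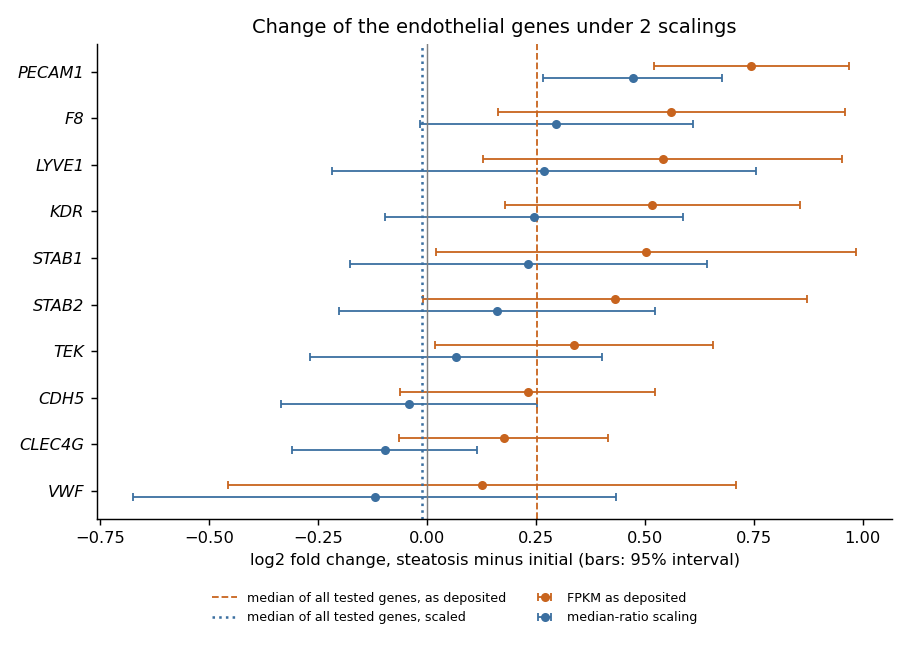
Log2 fold change (log2FC) from the initial state to steatosis (x axis, with 95% intervals) for the 10 endothelial genes, from FPKM as deposited and after median-ratio scaling of the libraries, with vertical lines at 0 and at the median of all tested genes. The interval of PECAM1 stays above 0 and above the median of all tested genes in both, whereas CLEC4G, CDH5 and VWF change sign with the scaling.

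Comparing levels within a group on the FPKM scale, which is per length, CLEC4G stood first in both groups, with its lowest pool above the highest pool of any other of the 10 genes. F8 and VWF were the 2 least abundant, each separated from its neighbour above. In between, the order in the initial state was CDH5, PECAM1, LYVE1, KDR, STAB1, STAB2 and TEK, and no neighbours in it were separated by their pools. In steatosis PECAM1 came before CDH5, and STAB2 was separated from TEK. PECAM1 was higher than CDH5 in all 4 steatosis libraries, and CDH5 was higher than PECAM1 in 3 of the 4 initial libraries.

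**Figure D4:**
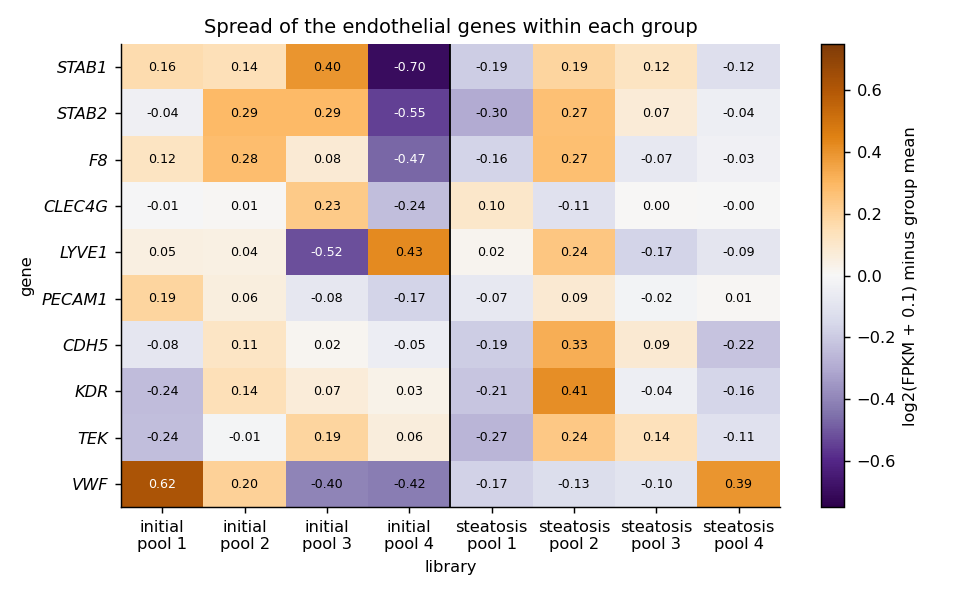
Difference of each library from the mean of its group in log2(FPKM + 0.1) (colour and printed number) for the 10 endothelial genes (rows) in the 8 libraries (columns). Pool 4 of the initial state is low for STAB1, STAB2 and F8 and high for LYVE1, and VWF follows another pattern, with its highest values in pool 1 of the initial state and pool 4 of steatosis.

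Within groups, the 10 genes did not deviate as a block. In pool 4 of the initial state 7 of the 10 lay below the group mean, but LYVE1 was 0.43 above it. In pool 2 of steatosis 8 of the 10 genes had their highest value of the group, with CLEC4G and VWF as the exceptions, and in pool 1 of steatosis 7 of the 10 had their lowest. The median deviation of the 10 genes was 0.24 in the former and -0.18 in the latter, while that of all tested genes was 0.02 and 0.01.

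Further endothelial genes were examined in lists outside the 10. Over 9 lists with 110 genes, 105 were found by symbol and 100 were tested. At an adjusted p under 0.05, 40 of the 100 were higher in steatosis and 2 lower, and their median log2FC was 0.37, beside 26.7% higher and a median of 0.25 over all tested genes. Under median-ratio scaling 23 were higher and 5 lower, beside 11.6% and 9.77% of all tested genes. Past the limits of the study, 11 of the 100 were higher and none lower, beside 6.01% and 0.334% of all tested genes, and 2 were higher under median-ratio and under upper-quartile scaling. CEMIP, counted among the 40, the 23 and the 11, was over 0.3 FPKM in steatosis only and so entered the tests through that group. WNT9B, counted among the 40, was mostly under 0.3 FPKM in the initial state and also entered through steatosis.

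Among 12 tested genes of the sinusoidal endothelium 4 were higher and none lower, beside 26.7% and 2.28% of all tested genes. Under median-ratio scaling 3 were higher and none lower, beside 11.6% and 9.77% of all tested genes. FCGR2B, the inhibitory Fc receptor with which sinusoids clear immune complexes, measured 27.08, 33.88, 39.99 and 32.11 FPKM in the initial state and 54.12, 62.35, 56.88 and 44.17 FPKM in steatosis (log2FC 0.71, SE 0.14, adjusted p = 0.00536, and 0.0569 under median-ratio scaling). GPR182, an endothelial scavenger of chemokines, rose from 4.13 ± 0.668 to 6.89 ± 0.413 FPKM (SD, n = 4 pools), and the lysosomal protease LGMN, the most abundant of the list, from 257 to 492 FPKM, with adjusted p of 0.00336 and 0.00581. LGMN and FCGR2B are also carried by macrophages. CD36, a fatty acid and lipoprotein receptor also found on macrophages and adipocytes, rose from 6.43, 0.89, 0.86 and 0.69 FPKM to 8.88, 15.71, 12.42 and 7.81 FPKM (log2FC 2.87 with an SE of 0.59, adjusted p = 0.00651). The high initial value was that of pool 1, which held 31.3 FPKM of 3 adipose genes against at most 3.89 in the other libraries, and without that pool the log2FC was higher, at 3.58. The transcription factors of sinusoidal identity, GATA4 and MAF, did not pass the test and had log2FC values of 0.31 and 0.23. Neither did OIT3 and DNASE1L3, at 0.35 and 0.32, nor FCN2, at 0.24.

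Of 28 genes of endothelium in general, 12 were higher in steatosis and none lower, beside 26.7% and 2.28% of all tested genes. Under median-ratio scaling 6 were higher and none lower, beside 11.6% and 9.77% of all tested genes. ACVRL1 and ENG encode ALK1 and endoglin, which together form an endothelial receptor for bone morphogenetic proteins. ACVRL1 rose from 1.88, 2.37, 2.29 and 1.37 FPKM to 9.07, 12.96, 12.39 and 9.67 FPKM (log2FC 2.43 with an SE of 0.19, adjusted p = 4.66e-05). ENG rose from 18.84, 18.07, 19.73 and 14.05 FPKM to 32.91, 29.57, 33.64 and 36.66 FPKM (log2FC 0.91 with an SE of 0.12, adjusted p = 0.00074). Which cells of the liver carried the rises of ACVRL1 and ENG was not tested. RAMP2, the partner of the adrenomedullin receptor, was the most abundant gene of the list and rose from 53.2 ± 3.18 to 98.7 ± 3.24 FPKM (SD, n = 4 pools), which is a log2FC of 0.89 with an SE of 0.08 and an adjusted p of 8.38e-05. The receptor that RAMP2 serves, CALCRL, measured 1.86 and 1.88 FPKM in the mean. LYL1, an endothelial and blood cell transcription factor, and ICAM2, an adhesion molecule shared with leukocytes and platelets, rose with log2FC values of 0.93 and 0.85. ACVRL1, ENG, RAMP2 and LYL1 passed the test in all 16 alternative settings, and ICAM2 in 15, since its adjusted p was 0.0593 under median-ratio scaling. PLVAP, the diaphragm protein of fenestrae and a marker used for capillarized sinusoids, rose from 32.2 ± 2.82 to 44.5 ± 4.01 FPKM (adjusted p = 0.00843, and 0.181 under median-ratio scaling), and CD34, another such marker, measured 1.69 ± 0.593 and 2.15 ± 0.672 FPKM with an adjusted p of 0.381.

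**Figure D5:**
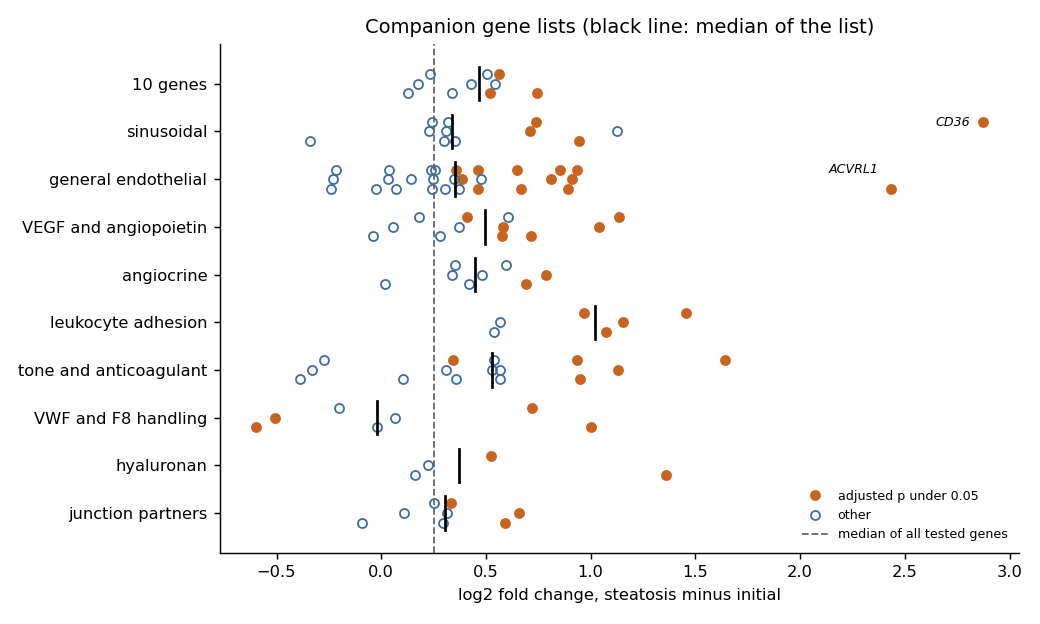
Log2 fold change (log2FC) from the initial state to steatosis (x axis) for the 10 endothelial genes and for the tested genes of the 9 other lists (rows), with filled points for an adjusted p under 0.05, a black line at the median of each list and a dashed line at the median of all tested genes. CD36 and ACVRL1 lie farthest to the right, and the adhesion list has its median at 1.02.

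In the list of leukocyte adhesion and activation, 4 of 6 tested genes were higher and none lower, beside 26.7% and 2.28% of all tested genes. VCAM1, the ligand of the leukocyte integrin VLA4, rose from 7.07 ± 1.53 to 19.5 ± 3.79 FPKM (SD, n = 4 pools), which is a log2FC of 1.46 with an SE of 0.17 and an adjusted p of 0.000422. MADCAM1, ICAM1 and CD40 rose with log2FC values of 1.16, 1.07 and 0.97 and adjusted p of 0.00327, 0.00101 and 0.00205. All 4 passed the test in the 16 alternative settings. The selectins SELP, which did not pass the test, and SELE, which was below the filter, had means of at most 0.513 and 0.0325 FPKM. These adhesion genes are also expressed by macrophages, stellate cells or hepatocytes to a varying degree. The stellate cell list had 4 of 8 genes higher, among them LRAT, beside 26.7% of all tested genes.

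Regarding vascular tone and anticoagulation, 5 of 15 genes were higher and none lower, beside 26.7% and 2.28% of all tested genes. Under median-ratio scaling 3 were higher and 1 lower, beside 11.6% and 9.77% of all tested genes. PLAT, tissue plasminogen activator, rose from 0.933 ± 0.578 to 2.85 ± 0.542 FPKM (SD, n = 4 pools; log2FC 1.64, adjusted p = 0.00537). PIEZO1, a channel that senses flow, had a log2FC of 1.13 (adjusted p = 0.00312), and EDNRB, the endothelin receptor with which sinusoidal endothelium clears endothelin, one of 0.95 (adjusted p = 0.00404). ECE1, which activates endothelin and was the most abundant of the list, rose from 31.8 to 40.1 FPKM (adjusted p = 0.0343, and 0.559 under median-ratio scaling). ECE1 passed in 6 of the 16 alternative settings. The flow-responsive factor KLF2 measured 14 ± 3.07 and 11.4 ± 1.77 FPKM, with an adjusted p of 0.248, and of 0.0365 with a log2FC of -0.55 under median-ratio scaling.

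Angiocrine genes are those with which endothelial cells signal to hepatocytes. Of these, 2 of 8 were higher and none lower, beside 26.7% and 2.28% of all tested genes. HGF rose from 3.49 to 5.67 FPKM (log2FC 0.69, adjusted p = 0.0169) and is made by stellate cells too, and WNT9B rose from 0.275 to 0.545 FPKM (0.78, adjusted p = 0.0384). Neither passed under median-ratio scaling, and WNT9B passed in 6 of 15 alternative settings. The pools of WNT9B measured 0.22, 0.39, 0.29 and 0.2 FPKM in the initial state and 0.44, 0.48, 0.76 and 0.5 FPKM in steatosis. It therefore met the filter of 0.3 FPKM only through its level in steatosis, and its call is no support of its own. WNT2 and RSPO3, which with WNT9B maintain the zonation of hepatocytes, had log2FC values of 0.60 and 0.42 and adjusted p of 0.0964 and 0.103. DLL4, BMP2, JAG1 and BMP6 had log2FC values of 0.48, 0.34, 0.35 and 0.02 and did not pass the test. In hyaluronan metabolism 2 of 4 tested genes were higher, beside 26.7% of all tested genes. The hyaluronan receptor CD44 rose from 9.53 to 13.6 FPKM (adjusted p = 0.0174, and 0.0981 under median-ratio scaling). CEMIP, which takes part in the breakdown of hyaluronan, went from 0.172 to 0.625 FPKM in the mean (adjusted p = 0.00663). Its initial pools, at 0.11 to 0.2 FPKM, were all under the filter of 0.3 FPKM. It was therefore tested only because of its level in steatosis, and its call is no support of its own. The synthases HAS1 and HAS3 were below the filter.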

How the data were processed

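Hepatic RNA of 8 pools of 2 pigs was sequenced by the authors (paired-end, BGISEQ-500). The authors filtered the reads, mapped them with HISAT2 2.0.4 to Sus scrofa 11.1, merged new coding transcripts found with StringTie into the reference, and quantified genes by RSEM 1.2.12 after mapping by Bowtie2 2.2.5, as named in the paper and the submitters' processing notes. The deposited values are FPKM. No scaling between libraries is given in the sources used here, and none was added. Another measure (other unit), the transcript length in bases, was taken from 4 deposited comparisons of single pairs of libraries, whose fold changes, FDR and p-values were not used. No read counts were used, and the SD between pools stands for the precision. Gene positions are those of RefSeq for Sscrofa11.1, in which 17778 of the 18103 gene IDs were found.

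For the 13175 genes that reached 0.3 FPKM in 4 or more libraries, log2(FPKM + 0.1) was fitted in limma 3.58.1 (R 4.3.3) with group as the sole term and a trend of variance with level, and p-values were adjusted by Benjamini-Hochberg. The limits were an adjusted p under 0.01 with a log2 fold change beyond 1, as in the paper, and an adjusted p under 0.05. The fit was tested on simulated data. The exact permutation test of mean FPKM for each of the 10 genes was two-sided (scipy 1.17.1). Python 3.11.15, numpy 2.4.6, pandas 2.3.3 and matplotlib 3.10.9 were used.

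Alternatives were common-sum, upper-quartile and median-ratio scaling, a pseudocount of 1, no filter, a filter of 1 FPKM, no trend, the pool number as a block, and each library left out. Deviations from the group means correlated at 0.16, 0.35, 0.32 and 0.25 between pools of the same number, all over 0.1. Between pools of different numbers they correlated at -0.20 to 0.03. The paper states that the animals were the same in both groups but not which pigs each pool held. The number enters the fits only in that alternative, so the p-values in the text are unpaired unless a block is named.

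The 10 genes and all lists were chosen with earlier results of these data known. Named outside the 10 are all VEGF, angiopoietin and angiocrine genes. From each other list, at most 5 genes with the largest change at an adjusted p under 0.05 and the 2 most abundant were to be named. F11R and HYAL2 were among the 2 most abundant of their lists but were not described above. Neither passed the test (adjusted p = 0.0708 and 0.454). CALCRL, CD34, GATA4, MAF, OIT3, DNASE1L3, SELP, SELE, HAS1 and HAS3 fall outside this rule and were chosen after their values were seen. Genes were matched by symbol. TF, listed under 2 IDs, was left out. Marker lists of hepatocytes, macrophages, stellate cells, smooth muscle, cholangiocytes, platelets, lymphatic endothelium, mesothelium, skeletal muscle, stomach and adipose tissue described the libraries. The values of 1 listed gene are not reported here.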

Additional observations from a re-analysis of the deposited data

Results flagged for a closer look

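Among the 20 sets of 4 pools examined (the 10 genes in both groups), 1 held a pool far from the other 3. This was VWF in pool 4 of steatosis, at 1.32 FPKM against 0.86, 0.89 and 0.91 FPKM in pools 1 to 3. Chance alone gives such a gap in about 1 in 20 sets.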

How the results depend on the processing

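Among the 10 genes, LYVE1 alone changed its side of the threshold with the pool number as a block. That block gave 4 of the 10 genes higher at an adjusted p under 0.05 and 39 of the other endothelial genes. PECAM1 alone of the 3 called genes passed in all 16 settings. The genes with an adjusted p under 0.05 fell from 3 to 1, and those not overlapping from 3 to 1, both under upper-quartile and under median-ratio scaling. For the other endothelial genes, the higher ones at an adjusted p under 0.05 numbered 25 under upper-quartile and 23 under median-ratio scaling instead of 40, and the lower ones 4 and 5 instead of 2. Those past the limits of the study numbered 2 under both scalings, 4 with a pseudocount of 1 and 7 without a filter, instead of 11. Median-ratio scaling left 54.2% of all genes at an adjusted p under 0.05 on the higher side, against 92.1% as deposited. Under upper-quartile and median-ratio scaling CLEC4G had log2 fold changes of -0.07 and -0.10, VWF of -0.09 and -0.12, and CDH5 of -0.01 and -0.04. Leaving out 1 library gave 1 to 3 of the 10 genes at an adjusted p under 0.05 (1 without pool 1 of the initial state and without pools 2 or 3 of steatosis), 3 to 6 not overlapping (6 without pool 3 of the initial state, 5 without pool 1 of steatosis), 4 to 10 other endothelial genes past the limits of the study (4 without pool 4 of the initial state, 2 of steatosis or 4 of steatosis, and 6 without pools 1 or 3 of steatosis), and a VWF log2 fold change from -0.01 to 0.33. FPKM gives no counting error, and the precision of VWF, the gene of lowest level, rests on the spread of the pools.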

Other observations

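For 4 of the genes, the tested genes with the most similar pattern were sought by the root mean square difference of log2(FPKM + 0.1) over the 8 libraries after centring each gene, among 12116 genes with a symbol other than a LOC number. The nearest to STAB2 were DENND1B, TBC1D16 and TRIM68, with differences of 0.06, 0.07 and 0.07, and STAB1 and F8 followed at positions 55 and 84, with 0.13 and 0.14. The nearest to PECAM1 was TBC1D1 (0.04), which went from 3.41 to 5.88 FPKM, followed by ZHX2 and TNFRSF21. The nearest to CLEC4G was DECR2 (0.06) and the nearest to VWF was SLC41A1 (0.10). Of the 10 genes, none other than STAB1 and F8 was among the nearest 100 of STAB2, CLEC4G, PECAM1 or VWF. The likeness is over 8 libraries, in each of which all genes share the depth and composition of that library, and it was not tested.

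The mesothelial genes UPK3B and UPK1B were under the filter, with a summed level of 0.07 to 1.29 FPKM in the initial state and at most 0.07 FPKM in steatosis.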
